A study of Arabidopsis thaliana with 38 samples.

Results

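Histone H3.3 is the form of histone H3 that plants place into chromatin outside DNA replication, and serine 28 of its tail lies next to lysine 27, the residue methylated by Polycomb complexes. Here RNA of H3.3S28A plants, the line whose label names the exchange of serine 28 for alanine in H3.3, is set against RNA of H3.3 plants, the unmutated counterpart. The comparison takes every row of the deposited gene count table, 27416 genes in 4 of the 8 RNA libraries of an Arabidopsis thaliana series of 38 samples. H3.3S28A and H3.3 have 2 libraries each, as have H3.1S28A and H3.1, the lines of the replication-coupled histone that serve for 1 comparison at the end. All are labelled as seedlings 2 weeks old. Floral, clock and cold genes are set aside, and the account is of the other pathways and gene families.

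The labels give only the names H3.3S28A, H3.3, H3.1S28A and H3.1 as genotypes. They do not say in which background or from which promoter the histone is expressed, whether a line is 1 transformant, or whether the 2 libraries of a genotype came from separate batches of plants. Adjusted p-values therefore measure the spread between these libraries, which may be technical. Plants were grown in soil after 2 days of stratification at 4 °C, at 22 °C in either 16 h or 8 h of light, and the labels do not say which held for these libraries. The extraction text names closed buds and not seedlings, so the tissue was checked with marker genes. The serine 28 exchange itself cannot be read from counts per gene.

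Seedlings take up nitrate, ammonium, iron, phosphate and sulphate through the root, build chlorophyll and the enzymes of the Calvin cycle, and return phosphoglycolate to the cycle through photorespiration. Autophagy delivers cell contents to the vacuole and recycles nitrogen, and is most active in starved and ageing leaves. Many genes that respond to nutrients, stress and age are silent in young leaves and carry trimethylated lysine 27, the mark of Polycomb silencing. The series asked how serine 28 bears on silencing by that mark.

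The libraries held 19738850 and 12865999 reads assigned to genes in H3.3S28A replicates 1 and 2, against 19630779 and 18914850 in H3.3 replicates 1 and 2. Values are CPM, the counts of a gene per 1000000 counts of its library, after TMM scaling, a correction for differences in library composition. Replicates correlated at r = 0.982 in H3.3S28A and 0.991 in H3.3 over log2 CPM, and their counts differed by more than sampling noise, with a chi-square per degree of freedom of 18.6 and 4.11, so that no library was a copy of another. Of the H3.3 histone genes AT4G40040 stood at 1258 and 1198 CPM in H3.3S28A, against 721 and 685 CPM in H3.3, AT5G10980 at 147 and 147, against 103 and 110.4 CPM, and AT4G40030 at 158 and 177, against 163 and 158 CPM. The first 2 were called higher, AT5G10980 only as fitted. After the correction for gene span described below, AT4G40040 was higher by 0.50 on the log2 scale, against 0.80 ± 0.07 as fitted, AT5G10980 was at -0.17 and not called, and AT4G40030 was called lower (-0.34). Of 5 H3.1 genes 1 was called as fitted, AT5G10400, which was lower (log2 fold change, H3.3S28A over H3.3, of -0.24 ± 0.08, where ± gives the standard error of the fit to 2 libraries a group) and lost its call without any 1 of 3 libraries. After the correction all 5 (AT5G10400, AT3G27360, AT5G65360, AT5G10390 and AT1G09200), which span at most 833 bp, were called lower, with log2 fold changes of -1.09 to -0.74. Reads of an introduced histone copy and of near-identical copies would be counted with these genes.

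Leaf mesophyll markers summed to 41300.0 and 36620.0 CPM in H3.3S28A and 40750.0 and 39120.0 CPM in H3.3, with 2 of 6 tested markers lower as fitted, and with 5 lower and 1 higher after the correction for span. None of 10 seed markers passed the count filter, while 3 of 10 tapetum and pollen markers did. Of these 3, 0 were higher and 1 was lower, in both fits. The tapetum and pollen markers summed to 3.09 and 2.54 CPM in H3.3S28A and 5.94 and 8.2 CPM in H3.3. Floral bud markers, in contrast, summed to 193 and 181 CPM in H3.3S28A and 0.749 and 1.08 CPM in H3.3, and all 7 that were tested were called higher. These 7 held at most 6 counts in an H3.3 library and passed the count filter through H3.3S28A alone, so that they could not have been called lower. The petal and stamen gene AP3 was at 10.8 and 10.6 CPM in H3.3S28A, with no read in H3.3. A count of 0 allows up to 0.150 and 0.154 CPM in the 2 H3.3 libraries (3 counts, counting error only). Phloem markers summed to 203 and 192 CPM in H3.3S28A, against 432 and 427 CPM in H3.3, with 4 of 6 lower in each fit. Guard cell markers summed to 41.5 and 31.5 CPM in H3.3S28A and 39.2 and 36.4 CPM in H3.3, with MYB60 higher and KAT1 and KAT2 lower in both fits. Shoot meristem markers summed to 70.33 and 73.07 CPM in H3.3S28A and 76.84 and 70.15 CPM in H3.3. Of 5 such markers 3 were tested, with 1 higher and 1 lower as fitted, and 2 higher and 0 lower after the correction. STM was at 8.63 and 10.2 CPM in H3.3S28A and 3.0 and 4.1 CPM in H3.3, higher in both fits. Of 11 root markers 4 were tested, 1 higher and 1 lower, and EXPA7 and RHD6, which define root hair cells, had no read in any library. Fewer cells of a type and less RNA per cell cannot be told apart in whole tissue, and the part of bud or phloem tissue in the results below was not tested. Chloroplast genome genes took 0.052% (95% Wilson interval 0.051 to 0.053%) and 0.858% (0.853 to 0.863%) of the counts in H3.3S28A replicates 1 and 2, against 0.104% (0.102 to 0.105%) and 0.114% (0.113 to 0.116%) in H3.3, so that H3.3S28A replicate 2 stood apart. These intervals, too, cover counting error only.

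The fold change fell with the span of the gene, its length from start to end of the annotated locus (Spearman's rho = -0.524 over tested genes, as a description). Each single H3.3S28A library set against each single H3.3 library gave a rho between -0.533 and -0.497, while the 2 H3.3S28A libraries set against each other gave 0.181 and the 2 H3.3 libraries -0.0402. Genes up to 1000 bp had a median log2 fold change of 0.70 and those over 7000 bp one of -1.38, as the plot by gene span shows. Counts of lists and families below are therefore given as fitted and again after a smooth trend with span was removed from the fit. All H3.3S28A libraries differ from all H3.3 libraries in this trend, so that genotype and library preparation cannot be told apart as its source.

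**Figure D1:**
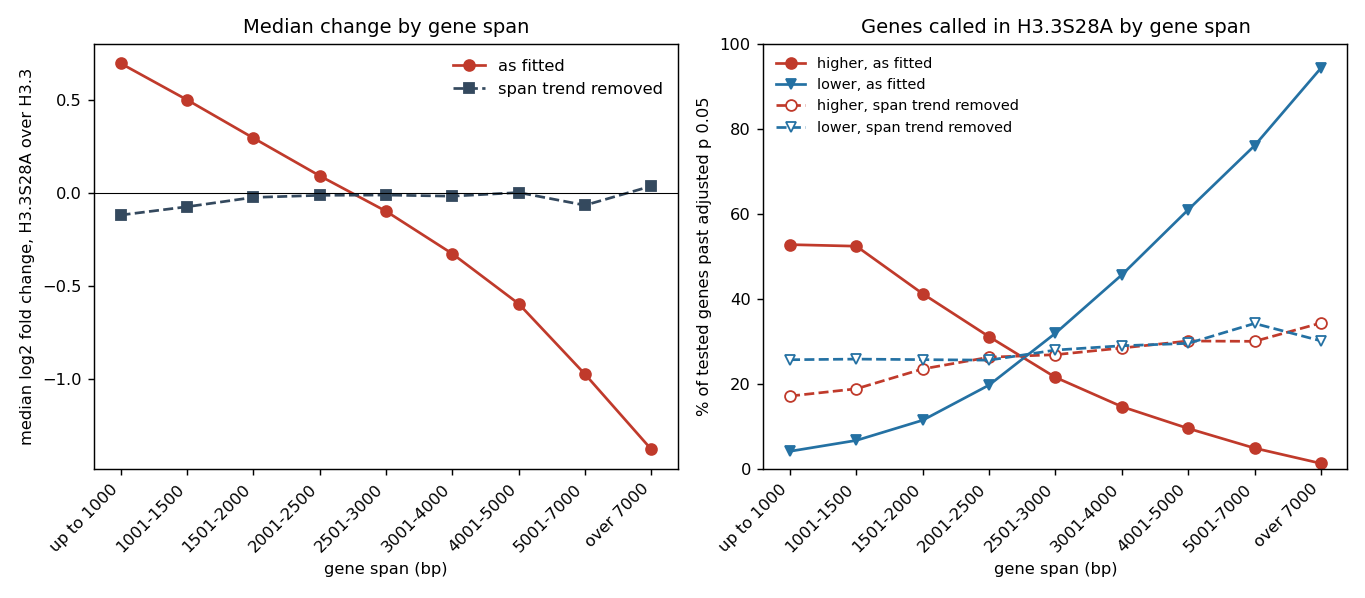
Left, median log2 fold change (H3.3S28A over H3.3) of tested genes in 9 classes of gene span in bp, as fitted (circles) and with the span trend removed (squares). Right, percent of each class called higher (circles) or lower (triangles) at adjusted p under 0.05, filled as fitted and open with the trend removed. As fitted, 52.8% of genes up to 1000 bp were higher and 4.12% lower, against 1.26% and 94.3% over 7000 bp.

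Of 19729 genes with enough counts for a test, 11529 differed between H3.3S28A and H3.3 (58.4%, edgeR's quasi-likelihood test, Benjamini-Hochberg adjusted p under 0.05 over all tested genes). H3.3S28A was higher at 5674 (28.8%) and lower at 5855 (29.7%). At least 2-fold changes were seen in 1976 genes that were higher (10.0%) and 2523 that were lower (12.8%). With the span trend removed 4973 of 19525 genes were higher (25.5%) and 5354 lower (27.4%), 52.9% together. In both fits 3638 genes were higher (18.6%) and 3958 lower (20.3%). A further 174 were higher as fitted and lower without the trend, and 314 the reverse. The median log2 fold change of all tested genes was 0.008 and their median span 2401 bp. A gene that passed the count filter through 1 group alone could be called in 1 direction only. This held for 588 of the genes that were higher and 160 of those that were lower. Within the lists and families below it held for 62 of 488 and 10 of 334. Among rises these were 10 of 44 P450 enzymes, 5 of 17 NAC, 4 of 17 R2R3-MYB and 3 of 9 bHLH factors. They were 2 each in pattern-triggered immunity (of 5), hypoxia (of 6), indole glucosinolates and camalexin (of 9) and cysteine-rich peptides (of 4). Another 2 each were in ERF factors (of 7), pectin methylesterases (of 6), serine carboxypeptidase-like genes (of 15) and glutathione S-transferases (of 17). Among falls they were 3 of 14 beta-glucosidases and 2 of 32 P450 enzymes. A list with about 28.8% higher and 29.7% lower does not stand out from all tested genes.

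The largest rises were of genes with almost no reads in H3.3. All rises named in this paragraph are of genes that passed the count filter through H3.3S28A alone. They could not have been called lower. Folds against genes without a read in H3.3 are lower bounds, set against a floor of 3 counts over both H3.3 libraries. TCP1, which encodes a TCP transcription factor, was at 8.58 and 6.82 CPM in H3.3S28A and had no read in H3.3, at least 104-fold higher. The sugar transporter SWEET10 was at 2.67 and 3.17 CPM and the histone-fold transcription factor NF-YC7 at 1.94 and 3.65 CPM in H3.3S28A, at least 37.8-fold and 34.5-fold higher, with no read of either in H3.3. The jasmonate-responsive defensin PDF1.2 stood at 27.6 and 28.2 CPM in H3.3S28A, against 0.200 and 0.0513 CPM in H3.3. Both H3.3S28A libraries lay far above both H3.3 libraries (log2 fold change 7.71 ± 0.28, edgeR adjusted p = 2.05e-08). Its near-identical copies PDF1.2b and PDF1.2c, between which reads may be split, were at least 15-fold and 52.3-fold higher. The chromatin remodeller PKR2, a relative of PICKLE, was at 4.19 and 1.67 CPM in H3.3S28A, against 0 and 0.0513 CPM in H3.3. Its ratio of 126 has a 95% counting interval of 22.1 to 5021, since H3.3 held at most 3 counts. The wall-loosening gene XTH3 had a ratio of 93.5 (16.3 to 3741) on the same terms. The remaining genes named in this class, M17, LEA18, ARI11, CYP709B1, CSLG2, WAK3 and NSP2, were at least 16.2-fold to 34.9-fold higher. Among genes without a symbol AT2G44240 was at 29.2 and 5.95 CPM in H3.3S28A, against 0 and 0.0513 CPM in H3.3 (ratio 789, 141 to 31209.7), and AT5G54360 and AT4G05475 were at least 32.0-fold and 29.1-fold higher.

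The largest falls included pigment, division and nitrogen genes. By the rule for naming, these averaged 1 CPM or above in H3.3, as the named rises did in H3.3S28A. PAKRP1, PRD1, AHP4, RL1, RRTF1, BGLU22, ACS11, CSLB06, REN1 and the genes without a symbol passed the count filter through H3.3 alone. They could not have been called higher. DFR, dihydroflavonol reductase of the anthocyanin pathway, was at 5.81 and 7.46 CPM in H3.3S28A, against 63.4 and 60.2 CPM in H3.3. The 2 groups were far apart, with a log2 fold change of -3.24 ± 0.13 (edgeR adjusted p = 4.23e-08). The anthocyanin xylosyltransferase UF3GT was lower too (2.3 and 2.06 CPM in H3.3S28A and 8.29 and 9.64 CPM in H3.3, -2.03 ± 0.23). PAKRP1, a kinesin of the phragmoplast that builds the division wall, stood at 0.890 and 0.397 CPM in H3.3S28A, against 9.04 and 11.1 CPM in H3.3 (-3.87 ± 0.33). ASN1, the asparagine synthetase best known from dark-treated leaves, was at 7.64 and 4.28 CPM in H3.3S28A and 49.1 and 49.3 CPM in H3.3. All H3.3S28A values were below all H3.3 values (-3.00 ± 0.19, edgeR adjusted p = 4.63e-07). FANCM, a helicase that limits meiotic crossovers, and PRD1, needed for meiotic DNA breaks, fell by 3.03 and 3.45 on the log2 scale. Their spans of 7471 and 5896 bp are long, and without the trend they were at -1.85 and -2.56. The phosphotransfer protein AHP4, which damps cytokinin signals, was at 0.209 and 0.635 CPM in H3.3S28A and 3.79 and 5.59 CPM in H3.3 (-3.57 ± 0.48). RL1, a MYB-domain gene related to RADIALIS, was at 0.0523 and 0.0793 CPM in H3.3S28A, against 2.50 and 1.64 CPM in H3.3, a ratio of 0.0304 (95% counting interval 0.00362 to 0.113). RRTF1, BGLU22, ACS11 and CSLB06 likewise held at most 2 counts over both H3.3S28A libraries, with ratios of 0.0254 to 0.0509. REN1 had no read in H3.3S28A and 1.45 and 1.28 CPM in H3.3. The transporter ABCB15 fell by 3.34 on the log2 scale, and without the trend it was at -2.53. AT5G27230, AT5G66390 and AT3G43850, without a symbol, had ratios of 0.0254 to 0.0349.

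Among the 5 most abundant genes called in each direction, all of photosynthesis, log2 fold changes were between -0.62 and 0.92 as fitted, and between -1.17 and 0.23 without the span trend. The light-harvesting gene LHB1B1 stood at 4558 and 3839 CPM in H3.3S28A, against 6865 and 6062 CPM in H3.3 (-0.62 ± 0.09), and PSBR, a photosystem II protein, at 10643 and 10648 CPM in H3.3S28A, against 6028 and 5217 CPM in H3.3 (0.92 ± 0.07). Without the trend they were at -1.17 and 0.23. LHCA1, CAB3, CAB2 and LHCA4 were lower by 0.17 to 0.53 (0.53 to 0.92 without the trend), and RBCS3B, CAB1, PSBP-1 and LHCB6 higher by 0.17 to 0.50 on the log2 scale. With the span trend removed CAB1 and LHCB6 turned lower (-0.39 and -0.32) while PSBP-1 and RBCS3B were no longer called (-0.10 and 0.12). Leaving out single libraries ended the calls of CAB1, PSBP-1, LHCB6 and LHCA4. CAB1, CAB2 and CAB3 are near-identical copies, so how reads were split among them is uncertain.

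The lists of pathway genes divided into those mostly higher, those mostly lower and those near the background. Autophagy, nitrate and ammonium assimilation, iron homeostasis, aquaporins and senescence had most of their tested members higher. Photorespiration, protein folding in the endoplasmic reticulum and chlorophyll synthesis had most of their tested members lower. The carotenoid (7 of 13) and primary wall cellulose lists (6 of 9) did so as fitted, but not with the span trend removed. The diverging bar plot sets all 34 lists side by side.

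**Figure D2:**
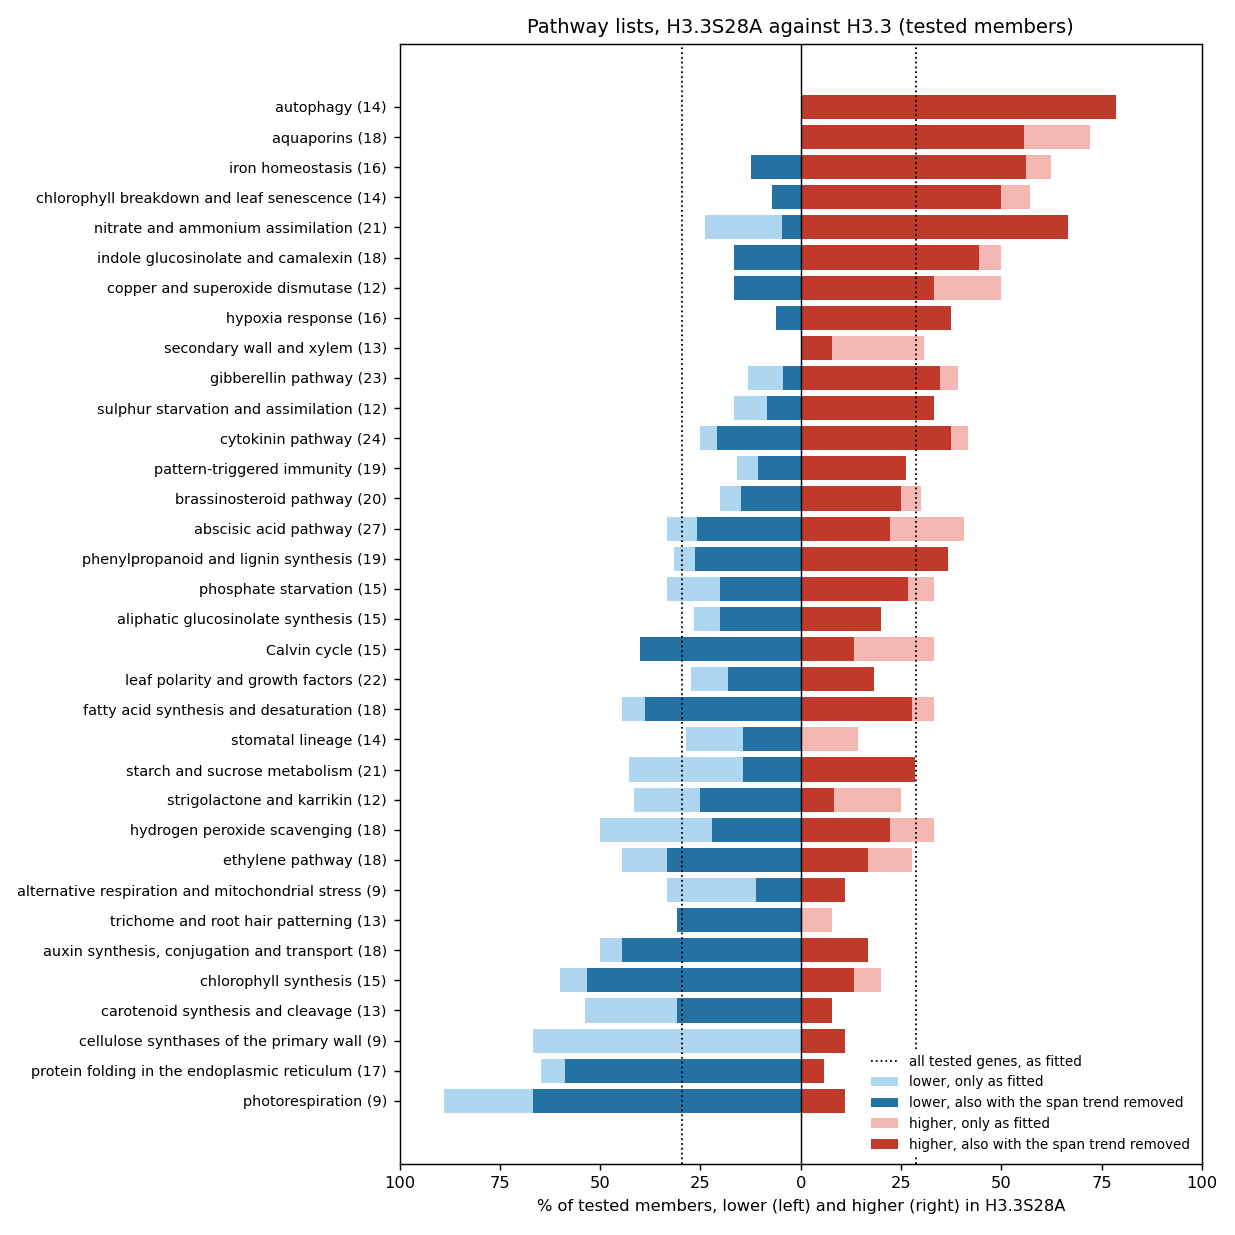
Percent of the tested members of each pathway list (number tested in brackets) that were lower (left) or higher (right) in H3.3S28A at adjusted p under 0.05, with the darker part also called in that direction after removal of the span trend. Dotted lines mark all tested genes as fitted, 28.8% higher and 29.7% lower. Autophagy had 11 of 14 members higher and none lower, and photorespiration 8 of 9 lower and 1 higher.

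Nitrogen uptake and assimilation genes were mostly higher in H3.3S28A. Of 21 tested genes 14 rose and 5 fell, with a median log2 fold change of 0.69, beside 0.008 for all genes, at a median span of 3114 bp. With the span trend removed 16 were higher and 1 lower. The summed CPM of the list went the other way, at 3054 and 2795 in H3.3S28A and 3556 and 3443 in H3.3. LBD39, a repressor in the nitrate response, stood at 47.4 and 53.2 CPM in H3.3S28A, against 15.9 and 12.8 CPM in H3.3. The groups did not overlap, and the log2 fold change was 1.81 ± 0.13 (edgeR adjusted p = 9.20e-07). Its relatives LBD37 and LBD38 rose as well (0.82 ± 0.08 and 0.94 ± 0.11). The ammonium transporter AMT1;1 was at 70.6 and 60.2 CPM in H3.3S28A, against 24.8 and 23.7 CPM in H3.3, with both H3.3S28A values above both H3.3 values (1.43 ± 0.11, edgeR adjusted p = 1.22e-06). NRT1.7, which loads nitrate into the phloem of old leaves for export to young ones, was at 66.9 and 61.7 CPM in H3.3S28A and 24.2 and 18.1 CPM in H3.3. It was about 3-fold apart between groups as fitted (1.61 ± 0.13, edgeR adjusted p = 2.36e-06) and further apart without the trend (2.2). GLN1;1, ASN2 and NIA1, named after their values were seen, encode cytosolic glutamine synthetase, asparagine synthetase and nitrate reductase, and rose by 1.09 ± 0.11, 0.86 ± 0.07 and 0.98 ± 0.11. The asparagine synthetase ASN1, which is not in the list, fell (-3.00 ± 0.19). Of the 5 falls in the list 2 were of glutamate synthases. Ferredoxin-dependent GLU1 stood at 331 and 281 CPM in H3.3S28A, against 1001 and 999 CPM in H3.3, well below it (-1.71 ± 0.08, edgeR adjusted p = 1.02e-07), and at -0.35 without the span trend. NADH-dependent GLT1, 10110 bp long, was at -1.03 ± 0.07 as fitted and at 0.50 without the trend, so that its direction turned. The number lower was 3 without H3.3 replicate 1 and 3 by DESeq2.

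Transporter families of nitrogen compounds showed the same lean, though lists and families can share genes, which are then counted in each. In the NPF family of nitrate and peptide transporters 15 of 24 tested members rose and 1 fell (median 0.61), and 16 and 1 without the span trend, with 3 of the rises in genes that passed the filter through H3.3S28A alone. AT1G68570 and AT2G26690 rose by 1.06 ± 0.11 and 0.80 ± 0.08 (1.23 without the trend for AT2G26690), and GTR2, which carries glucosinolates, by 0.63 ± 0.08. In the UMAMIT family of amino acid exporters 15 of 34 rose and 5 fell, and 17 and 4 without the trend. UMAMIT40 was at 30.2 and 23.6 CPM in H3.3S28A, against 10.2 and 11.7 CPM in H3.3, higher in both H3.3S28A libraries (1.3 ± 0.15). UMAMIT14, which releases amino acids from the phloem, was at 0.523 and 0.555 CPM in H3.3S28A and 5.59 and 3.13 CPM in H3.3, lower in both (-3.01 ± 0.43), and UMAMIT33 fell by 1.5 on the log2 scale. Each of 3 alternatives, leaving out H3.3 replicate 1 or 2 and DESeq2, left 3 UMAMIT genes lower. Among LBD factors 7 of 13 rose and 0 fell, and 5 and 0 without the trend, with LBD39 counted here and in the nitrogen list.

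**Figure D3:**
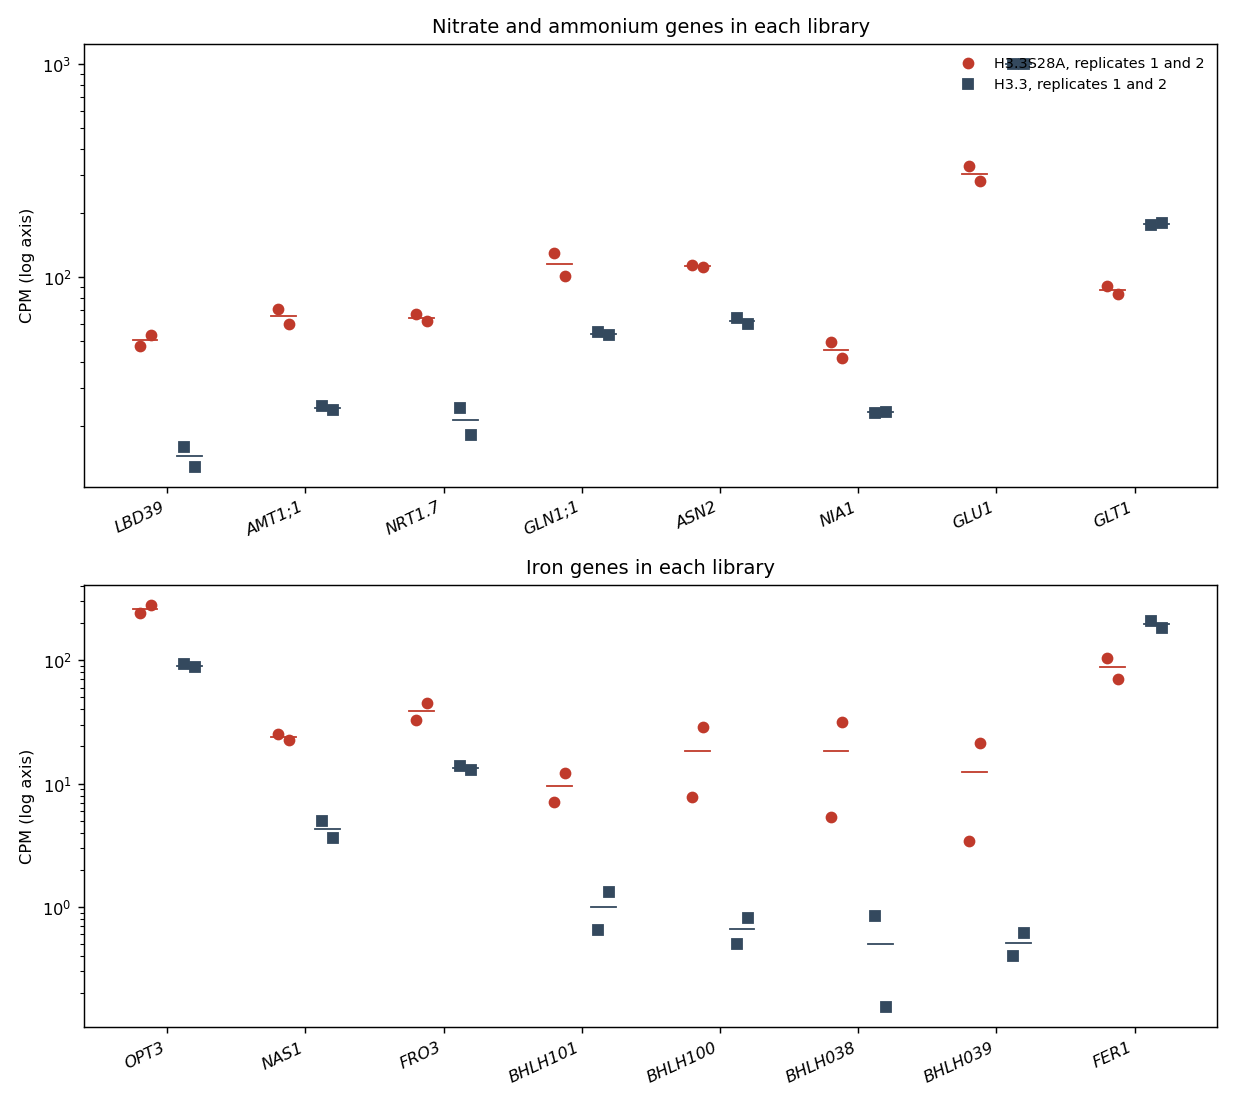
CPM on a log axis of nitrate and ammonium genes (top) and iron genes (bottom) in each library, with H3.3S28A (circles) left of H3.3 (squares) for each gene and a line at each group's mean. LBD39, AMT1;1 and NRT1.7 were higher and GLU1 lower in both H3.3S28A libraries. BHLH038 and BHLH039 were higher in both H3.3S28A libraries but far apart within that group.

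Genes of the iron deficiency response were mostly higher and the iron store FER1 lower. Of 16 tested genes 10 rose and 2 fell (median 1.35, median span 2064 bp), with the same 10 and 2 counts without the span trend. In both fits 9 were called higher and 2 lower. Of the rises 3 were of genes that passed the filter through H3.3S28A alone. OPT3, which moves iron into the phloem, was at 239 and 281 CPM in H3.3S28A, against 92.9 and 87.6 CPM in H3.3. The groups were well separated (1.53 ± 0.08, edgeR adjusted p = 2.00e-07). NAS1, which makes the iron carrier nicotianamine, stood at 25.3 and 22.6 CPM in H3.3S28A, against 4.94 and 3.64 CPM in H3.3, more than 5-fold apart (2.48 ± 0.17, edgeR adjusted p = 7.10e-07). The ferric reductase FRO3 was at 32.7 and 45 CPM in H3.3S28A and 13.9 and 12.9 CPM in H3.3 (1.53 ± 0.15). The 4 related transcription factors BHLH038, BHLH039, BHLH100 and BHLH101, which switch on iron uptake, rose with unequal replicates. BHLH100 was at 7.74 and 28.8 CPM in H3.3S28A, against 0.499 and 0.820 CPM in H3.3, highest in H3.3S28A replicate 2 (4.75 ± 0.60, edgeR adjusted p = 5.49e-05). BHLH101 was at 7.12 and 12.1 CPM in H3.3S28A and 0.649 and 1.33 CPM in H3.3 (3.26 ± 0.37), BHLH038 at 5.39 and 31.4 CPM in H3.3S28A and 0.849 and 0.154 CPM in H3.3, and BHLH039 at 3.45 and 21.3 CPM in H3.3S28A and 0.399 and 0.615 CPM in H3.3. In each of these genes both H3.3S28A libraries exceeded both H3.3 libraries. FER1, which encodes the storage protein ferritin, was at 104 and 70.8 CPM in H3.3S28A and 208 and 182 CPM in H3.3, lower in both (-1.15 ± 0.14). BHLH038, BHLH039 and FER1 were named after their values were seen. Upstream regulators moved apart, bHLH104 at 0.75 ± 0.09 and bHLH121 at -0.76 ± 0.12. The number lower was 1 without either H3.3 replicate and 1 by DESeq2.

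Other nutrient lists held single strong changes. Of 15 phosphate starvation genes 5 rose and 5 fell, and 4 and 4 without the span trend, with 3 falls as fitted without H3.3 replicate 1. The acid phosphatase PAP17 was at 26.3 and 29.8 CPM in H3.3S28A, against 6.84 and 6.62 CPM in H3.3, higher in both (2.05 ± 0.13, edgeR adjusted p = 4.91e-07), while PHR1, the transcription factor that governs the response, fell to 23.2 and 21.5 CPM in H3.3S28A, against 50.2 and 51.7 CPM in H3.3 (-1.19 ± 0.10). The phosphate exporter PHO1 (-0.98 ± 0.14) and the ubiquitin-conjugating enzyme PHO2 (-1.15 ± 0.08) were lower as fitted, and at -0.02 and -0.29 without the span trend, which ended the call of PHO1. Of 12 sulphur genes 4 rose and 2 fell, and 5 and 2 without the trend, with 1 fall as fitted without H3.3 replicate 1. LSU2, a marker of low sulphur, was at 15.4 and 17.5 CPM in H3.3S28A and 4.29 and 3.44 CPM in H3.3, far above (2.08 ± 0.18, and 1.25 without the trend), and the sulphate transporter SULTR1;2 rose by 1.53 ± 0.27 (2.42). Of 12 copper and superoxide dismutase genes 6 rose and 2 fell as fitted, with 1 fall by DESeq2. Without the trend 4 and 3 did, and the median of 0.39 as fitted moved to 0.01. The cytosolic copper-zinc superoxide dismutase CSD1 stood at 438 and 392 CPM in H3.3S28A, against 211 and 188 CPM in H3.3, about 2-fold higher in both (1.05 ± 0.08, edgeR adjusted p = 1.51e-06). The copper importer COPT1 and the chaperone CCH rose by 1.19 ± 0.10 and 0.85 ± 0.09, and by 0.61 and 0.45 without the trend.

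Autophagy had the highest share of rises among the 34 pathway lists. Of 14 tested genes 11 rose and 0 fell (median 0.84, median span 2080 bp), and 12 and 0 with the span trend removed. The ubiquitin-like ATG8 proteins coat the growing autophagosome and bind its cargo. ATG8D was at 24.1 and 24.7 CPM in H3.3S28A, against 6.69 and 5.79 CPM in H3.3, and ATG8B at 23.7 and 18.9 CPM in H3.3S28A, against 5.94 and 5.03 CPM in H3.3. Both were about 4-fold higher, with log2 fold changes of 1.96 ± 0.14 and 1.96 ± 0.17 (edgeR adjusted p = 8.85e-07 and 3.04e-06). ATG8A and ATG8F rose by 1.15 ± 0.12 and 0.81 ± 0.08, ATG8A by 0.69 without the trend. NBR1, a receptor that carries ubiquitinated cargo and was named after its values were seen, was at 162 and 144 CPM in H3.3S28A and 94.9 and 95.1 CPM in H3.3 (0.69 ± 0.07, and 1.07 without the trend). ATG8 genes are similar in sequence, and how shared reads were counted is not given in the sources used here.

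Chlorophyll breakdown and senescence genes were mostly higher, with 8 of 14 up, 1 down and a median of 0.70. Without the span trend 9 were higher and 1 lower. Of these NYE2 passed the filter through H3.3S28A alone and NAP through H3.3 alone. SAG21, a small mitochondrial protein gene that rises early in ageing leaves, stood at 31.7 and 25.9 CPM in H3.3S28A, against 3.3 and 5.23 CPM in H3.3, several-fold above it (2.76 ± 0.20, edgeR adjusted p = 9.61e-07). SAG13 was at 26.2 and 10.1 CPM in H3.3S28A, against 1.1 and 0.513 CPM in H3.3, with the H3.3S28A replicates unequal and both far above H3.3 (4.50 ± 0.47). NYE2 (AT4G11910), a relative of the STAY-GREEN factor that starts chlorophyll loss, was at 5.34 and 3.57 CPM in H3.3S28A and 0.250 and 0.154 CPM in H3.3 (4.43 ± 0.47), and WRKY6 rose by 2.03 ± 0.23. CYP89A9, a P450 that oxidises chlorophyll breakdown products, was at 59.0 and 58.6 CPM in H3.3S28A, against 9.39 and 9.79 CPM in H3.3, the call with the smallest adjusted p of its family (2.62 ± 0.11, edgeR adjusted p = 4.23e-08). The 1 senescence gene that fell was NAP, a NAC factor that drives leaf ageing, at 0.628 and 0.476 CPM in H3.3S28A and 3.59 and 2.87 CPM in H3.3 (-2.51 ± 0.41). NAP was named after its values were seen.

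Protein folding genes of the endoplasmic reticulum were lower. Of 17 tested genes 11 fell and 1 rose (median -0.60, median span 2871 bp), and 10 fell and 2 rose without the span trend. The HSP70 chaperone BIP2 stood at 46.8 and 39.4 CPM in H3.3S28A, against 128 and 142 CPM in H3.3, and its near-identical copy BIP1 at 63.7 and 59.4 CPM in H3.3S28A, against 159 and 169.8 CPM in H3.3. Both were lower in both libraries (-1.64 ± 0.10 and -1.42 ± 0.07, edgeR adjusted p = 2.81e-07 and 1.36e-07). SHD, the HSP90 of this compartment, was at 89.6 and 68.8 CPM in H3.3S28A and 252 and 275 CPM in H3.3 (-1.73 ± 0.11, and -1.11 without the trend), and the calreticulin CRT1A was at -0.99 ± 0.07. The 1 gene that rose was BZIP60, a transcription factor of the unfolded protein response named after its values were seen, at 46.6 and 41.1 CPM in H3.3S28A and 22.3 and 22.5 CPM in H3.3 (0.97 ± 0.11, and 0.64 without the trend). A second rise was counted without H3.3S28A replicate 2 or without H3.3 replicate 1. Plant U-box ubiquitin ligases leaned the same way, with 10 of 21 lower and 4 higher, and 13 and 2 without the trend. PUB9 and PUB4 fell by 1.37 and 1.51 on the log2 scale, and PUB13, which ubiquitinates the flagellin receptor, by 0.94. Without H3.3 replicate 2 the number higher was 1. Of 31 proteasome subunits 13 rose and 7 fell, and 15 and 4 without the trend, with 6 rises as fitted without either H3.3 replicate.

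Chlorophyll synthesis genes were mostly lower. Of 15 tested genes 9 fell and 3 rose (median -0.34, median span 2046 bp), and 10 fell and 2 rose without the span trend. HEMA1, glutamyl-tRNA reductase at the entry of the pathway, was at 391 and 309.6 CPM in H3.3S28A, against 972 and 982 CPM in H3.3, below it in both libraries (-1.48 ± 0.10, edgeR adjusted p = 6.10e-07). GUN5, the large subunit of magnesium chelatase, stood at 542 and 425 CPM in H3.3S28A, against 2412 and 2491 CPM in H3.3. This was about a 5-fold difference (-2.34 ± 0.10, edgeR adjusted p = 6.32e-08), and -1.58 without the span trend. CAO (AT1G44446), which makes chlorophyll b, was at 129.8 and 143 CPM in H3.3S28A and 334 and 326 CPM in H3.3 (-1.28 ± 0.07), and the protochlorophyllide reductase PORC at 151 and 148 CPM in H3.3S28A and 261 and 257 CPM in H3.3 (-0.80 ± 0.06).

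Photorespiration had the highest share of falls among the 34 lists, 8 of 9 genes, with 1 higher (median -0.78). The median span was 3287 bp, and without the trend 6 fell and 1 rose. GLDP1, the P protein of mitochondrial glycine decarboxylase, was at 394 and 357 CPM in H3.3S28A, against 1075 and 1059 CPM in H3.3, with no overlap (-1.51 ± 0.07, edgeR adjusted p = 9.96e-08), and at -0.82 without the trend. SHM1, its partner serine hydroxymethyltransferase, was at 813 and 848 CPM in H3.3S28A, against 1696 and 1733 CPM in H3.3, and peroxisomal HPR at 255 and 238 CPM in H3.3S28A, against 504 and 485 CPM in H3.3. Both were about 2-fold lower (-1.04 ± 0.07 and -1.0 ± 0.07). AGT, the peroxisomal aminotransferase named after its values were seen, was the 1 gene higher, at 1972 and 1927 CPM in H3.3S28A and 1303 and 1232 CPM in H3.3 (0.62 ± 0.07). CAT2, the catalase that removes photorespiratory hydrogen peroxide, fell with the pathway, at 273 and 278 CPM in H3.3S28A and 660.4 and 671 CPM in H3.3 (-1.27 ± 0.07, edgeR adjusted p = 1.39e-07). The list of hydrogen peroxide genes as a whole had 6 of 18 higher and 9 lower. That was 7 and 5 without the span trend, and 3 rises without H3.3 replicate 2.

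**Figure D4:**
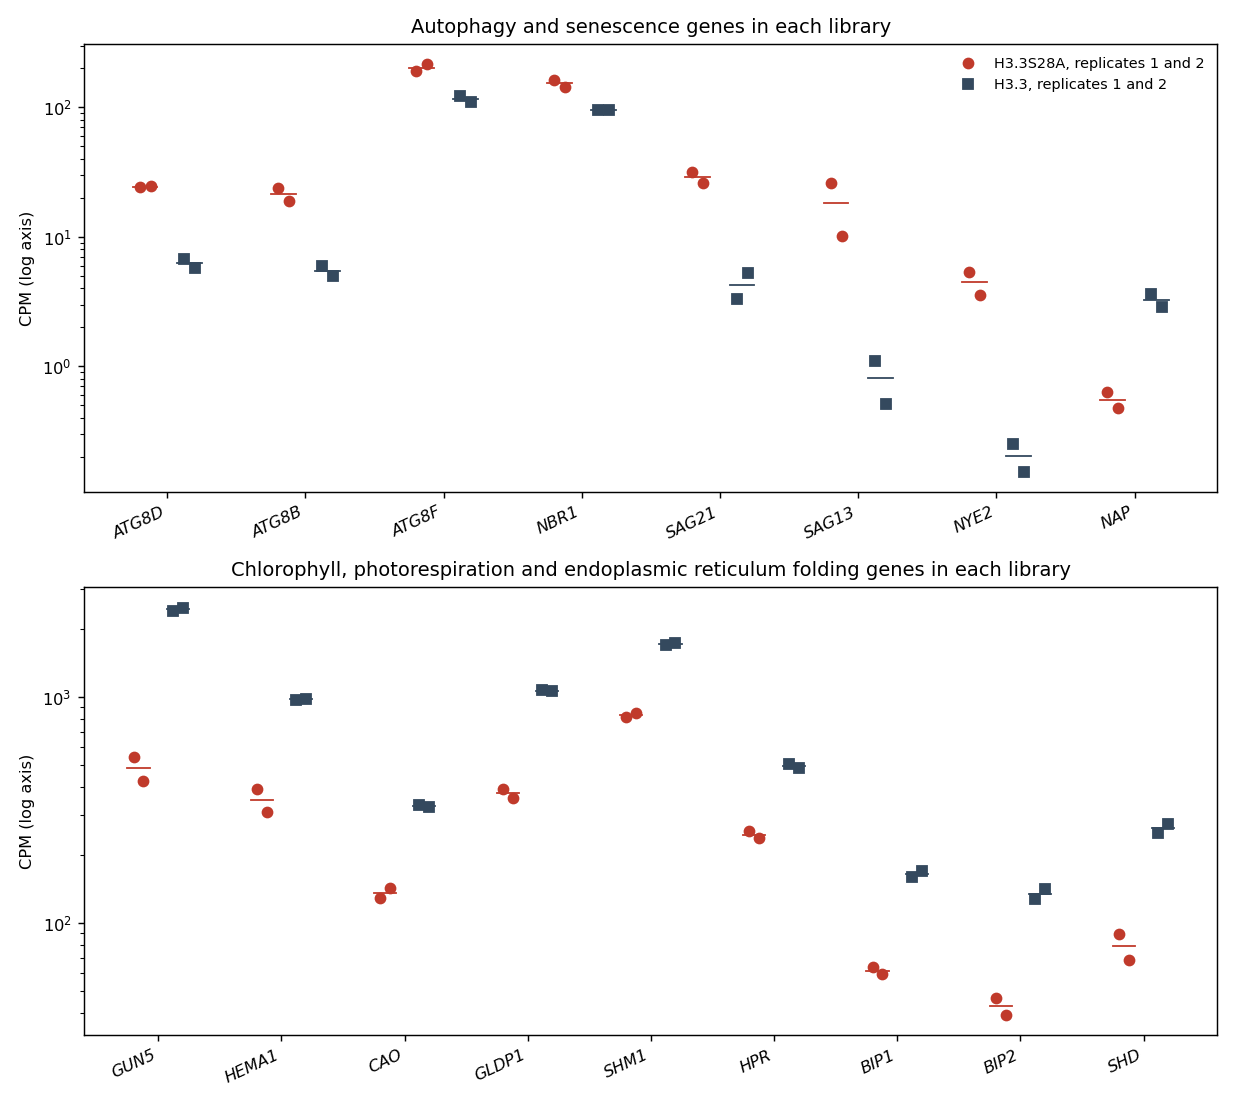
CPM on a log axis of autophagy and senescence genes (top) and of chlorophyll, photorespiration and endoplasmic reticulum folding genes (bottom) in each library, with H3.3S28A (circles) left of H3.3 (squares) and a line at each group's mean. Every gene in the top panel except NAP was higher in H3.3S28A, and every gene in the bottom panel lower, with no overlap between the groups. The genes were picked for display. Members of the bottom lists that rose, among them AGT and BZIP60, are not shown.

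The remaining chloroplast lists were mixed. Of 15 Calvin cycle genes 5 rose and 6 fell, and 3 rose and 8 fell without the span trend. RCA, which reactivates Rubisco, and PRK, phosphoribulokinase, were lower (-0.83 ± 0.07 and -0.81 ± 0.07). CP12-1, a small regulator that binds PRK, was higher as fitted (0.63 ± 0.07) and not called without the trend (-0.15). Of 13 carotenoid genes 7 fell and 1 rose, but 4 fell and 5 rose without the trend. The hydroxylase BCH2 (AT5G52570) was at 8.01 and 6.43 CPM in H3.3S28A, against 24.8 and 21.6 CPM in H3.3, lower in both and in both fits (-1.67 ± 0.15 and -1.73). The carotenoid cleavage gene CCD4 (AT4G19170) was the 1 rise (0.62 ± 0.06).

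Some lists of long or short genes turned round with the span trend. Of 21 starch and sucrose genes 6 rose and 9 fell as fitted, and 12 rose and 3 fell without the trend (median span 3922 bp). GBSS1, the granule-bound starch synthase, was lower in both fits, at 19.4 and 25.5 CPM in H3.3S28A and 76.8 and 76.5 CPM in H3.3 (-1.78 ± 0.12 and -1.46). The beta-amylase BAM3 (AT4G17090) was lower in both as well (-0.82 ± 0.08 and -0.84) and the phosphoglucomutase PGM1 higher in both (0.58 ± 0.06 and 1.33). Genes of the primary wall cellulose machinery, with a median span of 5547 bp, had 6 of 9 lower as fitted and 1 higher. Without the trend 0 were lower and 5 higher, and CESA1 moved to 0.66 from its fitted -0.35 ± 0.07. Without either H3.3 replicate no member was higher. Ribosomal proteins, 1582 bp in the median, had 41 of 66 higher and 9 lower as fitted, and 10 and 30 without the trend. ABCB and ABCC transporters (5738 bp) had 23 of 32 lower and 0 higher, then 9 and 6. ABCG transporters had 11 of 34 lower and 4 higher, then 2 and 13. As fitted the number lower was 6 without H3.3 replicate 1 and 7 by DESeq2, and the number higher 2 without H3.3S28A replicate 1, without either H3.3 replicate or by DESeq2. Small secreted peptides lost their rises, CLE peptides from 9 of 14 to 2 and RALF peptides from 6 of 7 to 0. No direction is drawn for these groups.

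Fatty acid genes split, with 6 of 18 higher and 8 lower, and 9 and 7 without the span trend. The plastid carboxylase subunit CAC3 was at 68.6 and 49.7 CPM in H3.3S28A, against 196 and 202 CPM in H3.3, lower in both fits (-1.74 ± 0.12 and -1.22). The cytosolic carboxylase ACC1, 10848 bp long, was at -1.99 ± 0.10 and at -0.40 without the trend. Pectin methylesterases and their inhibitors had 6 of 13 higher and 3 lower, the same counts in both fits. AT2G26440 of this family was at 31.2 and 23.1 CPM in H3.3S28A and 7.59 and 5.90 CPM in H3.3 (2.01 ± 0.18). Secondary wall and xylem genes had 4 of 13 higher and none lower in both fits, with 1 gene called in both. As fitted none was higher without H3.3 replicate 2, 2 without H3.3 replicate 1 and 1 by DESeq2.

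Among hormone lists, some cytokinin response regulators rose while the receptor HK2 fell. Of 24 cytokinin genes 10 rose and 6 fell, and 9 and 6 without the span trend. The response regulators ARR4, ARR6 and ARR7 are induced by cytokinin and dampen its signal. ARR4 was at 185 and 195 CPM in H3.3S28A, against 94.6 and 91.0 CPM in H3.3, and ARR7 at 55.8 and 54.1 CPM in H3.3S28A, against 18.9 and 19.3 CPM in H3.3. Both were higher in both libraries (1.03 ± 0.07 and 1.52 ± 0.10, edgeR adjusted p = 5.47e-07 and 5.46e-07), and ARR6 rose by 1.69 ± 0.14. The receptor HK2 was at 8.90 and 9.52 CPM in H3.3S28A, against 41.0 and 35.7 CPM in H3.3, lower in both fits (-2.06 ± 0.13 and -1.21). Of 23 gibberellin genes 9 rose and 3 fell, also 9 and 3 without the trend, with 5 rises as fitted without either H3.3 replicate. The gibberellin-regulated peptide gene GASA1 was at 195 and 239 CPM in H3.3S28A, against 76.5 and 62.5 CPM in H3.3 (1.64 ± 0.11), and GASA4 rose by 1.08 ± 0.11. Without the trend they were at 0.87 and 0.62. Of the gibberellin genes 8 were called higher and 1 lower in both fits.

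Abscisic acid genes moved in both directions. Of 27 tested 11 rose and 9 fell, with 6 and 8 without the span trend, and with 7 rises without H3.3 replicate 2 or by DESeq2. The receptors PYL6 and PYL8 (AT5G53160) were higher. PYL6 was at 16.7 and 15.9 CPM in H3.3S28A, against 2.2 and 1.33 CPM in H3.3 (3.2 ± 0.23, edgeR adjusted p = 1.1e-06), and PYL8 rose by 1.5 ± 0.09. The transcription factor ABF3 fell (-1.88 ± 0.17). BGLU18, which frees abscisic acid from its glucose ester, was at 91.8 and 93.1 CPM in H3.3S28A, against 268 and 282 CPM in H3.3, about 3-fold lower (-1.57 ± 0.07, edgeR adjusted p = 4.64e-08).

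Auxin genes were more often lower, with 9 of 18 down and 3 up, and 8 and 6 without the span trend. The efflux carriers ABCB1 and ABCB19 fell as fitted (-1.62 ± 0.11 and -1.42 ± 0.08) and were at -0.71 and -0.21 without the trend. The conjugating enzyme GH3.17 fell (-1.5 ± 0.21) and the importer AUX1 rose (0.95 ± 0.11, and 1.51 without the trend). Of 18 ethylene genes 8 fell and 5 rose, and 6 and 5 without the trend. As fitted the rises numbered 3 without H3.3S28A replicate 2 or by DESeq2, and 1 without H3.3 replicate 2. The signalling genes EIN2, EIN3 and EIL1 were lower by 1.56, 0.66 and 0.60 on the log2 scale, and without the span trend they were at -0.62, -0.49 and -0.54. ACS6, which makes the ethylene precursor, was at 6.23 and 4.6 CPM in H3.3S28A and 20.4 and 41.9 CPM in H3.3, with unequal H3.3 libraries both above H3.3S28A (-2.50 ± 0.30). Brassinosteroid genes had 6 of 20 higher and 4 lower, and 9 and 3 without the trend, with 2 lower as fitted without H3.3 replicate 1. DWF1, an early enzyme of the pathway, was lower in both fits (-0.70 ± 0.07), and IBH1, a bHLH protein that holds back growth, higher (1.56 ± 0.20, and 0.95 without the trend). Strigolactone and karrikin genes had 5 of 12 lower and 3 higher, and 3 and 2 without the trend, with 3 lower as fitted without H3.3 replicate 1 or by DESeq2. The repressors SMXL6 (AT1G07200) and SMXL7 (AT2G29970) fell (-1.99 ± 0.14 and -1.36 ± 0.10), and the karrikin receptor KAI2 rose (1.05 ± 0.08).

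Defence and secondary metabolism genes showed strong single rises. Of 18 indole glucosinolate and camalexin genes 9 rose and 3 fell, and 9 and 5 without the span trend. CYP71A12, which converts indole-3-acetaldoxime towards camalexin and related nitriles, was at 9.47 and 8.01 CPM in H3.3S28A, against 1.15 and 0.462 CPM in H3.3, far above it in both libraries (3.43 ± 0.35, edgeR adjusted p = 1.21e-05). CYP79B3, which makes that aldoxime, fell (-0.91 ± 0.11), as did the myrosinase TGG2 (-0.76 ± 0.09). Aliphatic glucosinolate genes had 3 of 15 higher and 4 lower, and 4 and 7 without the trend, with 2 lower as fitted without H3.3S28A replicate 1 or H3.3 replicate 1. Of 19 pattern-triggered immunity genes 5 rose and 3 fell, and 8 and 3 without the trend. PEPR1, a receptor of danger peptides, fell by 1.81 on the log2 scale, and NHL10 (AT2G35980), a marker of elicitation, was at 3.56 and 2.46 CPM in H3.3S28A and 0.0499 and 0.0513 CPM in H3.3, a ratio of 61.7 (95% counting interval 16.6 to 517). Cysteine-rich receptor-like kinases went both ways, 8 of 31 higher and 9 lower and then 11 and 6 without the trend, with CRK4 at 2.07 ± 0.21 and CRK21 at -1.36 ± 0.10. Their rises as fitted numbered 4 without H3.3 replicate 2 or by DESeq2, and 5 without H3.3 replicate 1. Of 19 phenylpropanoid genes 7 rose and 6 fell, and 8 and 7 without the trend, among them PAL1, the first enzyme, at -0.87 ± 0.08 and SNG1, which forms sinapoylmalate, at 0.61 ± 0.07. Without the trend these 2 were at -0.57 and 1.17.

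Among families of detoxification and secondary metabolism, serine carboxypeptidase-like genes were more often higher in both fits, while P450 enzymes and UDP-glycosyltransferases lay near the shares of all genes. Tau and phi glutathione S-transferases had 17 of 34 higher and 3 lower, but 11 and 10 without the span trend. GSTF7, induced in defence, was at 74.5 and 59.0 CPM in H3.3S28A, against 9.79 and 4.31 CPM in H3.3, higher in both fits (3.24 ± 0.26, edgeR adjusted p = 2.29e-06). Serine carboxypeptidase-like proteins, some of which transfer acyl groups in secondary metabolism, had 15 of 31 higher and 0 lower, and 19 and 1 without the trend. SCPL7 was at 45.3 and 43.0 CPM in H3.3S28A, against 8.59 and 8.97 CPM in H3.3, and SCPL49 at 112 and 104 CPM in H3.3S28A, against 35.1 and 40.2 CPM in H3.3. Each lay above H3.3 in both libraries (2.33 ± 0.12 and 1.53 ± 0.09, edgeR adjusted p = 1.04e-07 and 3.01e-07). Among SCPL genes 3 were lower without H3.3S28A replicate 1 and 2 without H3.3S28A replicate 2. Cytochrome P450 enzymes had 44 of 145 higher and 32 lower, and 48 and 31 without the trend, with 21 lower as fitted without H3.3 replicate 1 and 20 by DESeq2. UDP-glycosyltransferases had 12 of 48 higher and 14 lower, and 8 and 15 without the trend, with 7 higher by DESeq2. Beta-glucosidases had 8 of 28 higher and 14 lower, then 9 and 10, and BGLU45, which acts on the lignin precursor coniferin, rose by 3.69 ± 0.32.

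Aquaporin and late embryogenesis abundant protein genes were mostly higher. Of 18 tested aquaporins 13 rose and 0 fell (median 0.64, median span 1859 bp), and 10 rose and 2 fell without the span trend. The plasma membrane channel PIP1;5 was at 201 and 199 CPM in H3.3S28A, against 86.6 and 75.3 CPM in H3.3, and the vacuolar channel TIP2;2 at 98.8 and 96.2 CPM in H3.3S28A, against 34.6 and 27.4 CPM in H3.3. Both were more than 2-fold higher (1.3 ± 0.08 and 1.65 ± 0.11, edgeR adjusted p = 3.23e-07 and 5.36e-07). Late embryogenesis abundant proteins, which protect drying cells, had 8 of 9 higher and 1 lower in both fits. LEA3 was at 22.6 and 26.1 CPM in H3.3S28A, against 7.24 and 7.64 CPM in H3.3, higher in both (1.7 ± 0.14, and 0.92 without the trend). LEA7 was at 2.25 and 1.59 CPM in H3.3S28A, with at most 3 counts in H3.3, a ratio of 26.2 (95% counting interval 8.56 to 130.3). Of the 8 rises 5 were of genes that passed the count filter through H3.3S28A alone. Of 16 hypoxia genes 6 rose and 1 fell, and 7 and 3 without the trend, with 3 rises as fitted without H3.3 replicate 2. The fermentation enzyme PDC2 was at 69.8 and 67.8 CPM in H3.3S28A, against 19.7 and 22.2 CPM in H3.3 (1.72 ± 0.10, edgeR adjusted p = 2.92e-07), and the haemoglobin HB1 rose by 2.24 ± 0.22. Of 9 genes of alternative respiration 3 fell and 1 rose, and 1 and 1 without the trend. NDA1, a mitochondrial NADH dehydrogenase that bypasses complex I, was the fall that stood in both fits (-1.46 ± 0.09 and -1.27). Germin-like proteins had 6 of 9 higher and 0 lower as fitted, but 3 and 2 without the trend (median 0.69 and 0.14). GER3 stood at 1213 and 1151 CPM in H3.3S28A and 293 and 326 CPM in H3.3 (1.93 ± 0.08, and 1.21 without the trend).

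Lists of leaf patterning genes had shares of falls near that of all genes as fitted, with single strong changes. Of 13 trichome and root hair genes 4 fell and 1 rose, and 6 fell and 0 rose without the span trend. The 1 rise was not called without H3.3S28A replicate 1, without either H3.3 replicate or by DESeq2. The bHLH factor GL3 was at 0.157 and 0.159 CPM in H3.3S28A, against 1.35 and 1.74 CPM in H3.3, and its MYB partner GL1 (AT3G27920) at 0.837 and 1.27 CPM in H3.3S28A, against 2.90 and 3.74 CPM in H3.3. The complex of both starts leaf hairs, and both genes were lower in both libraries (-3.24 ± 0.63 and -1.68 ± 0.38, edgeR adjusted p = 0.00113 and 0.00287). TTG2, a WRKY factor downstream of them, fell by 1.58, and EGL3, a close relative of GL3, by 1.31 on the log2 scale. Of 14 stomatal genes 4 fell and 2 rose, and 4 and 1 without the trend. As fitted none rose without H3.3 replicate 2 or by DESeq2, and 1 without H3.3S28A replicate 2 or H3.3 replicate 1. POLAR (AT4G31805), which marks one pole of dividing stomatal precursors, was at 3.24 and 2.46 CPM in H3.3S28A, against 10.6 and 12.9 CPM in H3.3 (-2.02 ± 0.22), and the receptor kinase ER fell (-1.64 ± 0.11, and -0.59 without the trend). Of 22 leaf polarity and growth genes 4 rose and 6 fell, and 7 and 5 without the trend. The YABBY genes YAB2 and YAB5 of the lower leaf face rose by 1.01 ± 0.14 and 0.99 ± 0.12, and AS1 and PHB, active in the upper face, were at -0.61 ± 0.09 and -1.04 ± 0.12, PHB at -0.29 without the trend.

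Transcription factor families gave mixed counts, which cover only the members found by symbol or synonym. NAC factors had 17 of 68 higher and 8 lower, and 19 and 10 without the span trend, with NAC083 and NAM at 1.0 ± 0.09 and 1.57 ± 0.19 (NAC083 at 0.64 without the trend). R2R3-MYB factors had 17 of 61 higher and 8 lower, but 12 and 17 without the span trend. Their rises as fitted were 9 without H3.3 replicate 1 and 11 without H3.3 replicate 2 or by DESeq2. MYB48 was at 36.7 and 37.9 CPM in H3.3S28A, against 9.99 and 11.5 CPM in H3.3, higher in both (1.79 ± 0.12). B-box proteins had 8 of 27 higher and 10 lower, then 4 and 16. BBX16 was at 13.2 and 15.6 CPM in H3.3S28A, against 57.8 and 58.6 CPM in H3.3 (-2.02 ± 0.11), and BBX8 at 31.7 and 21.0 CPM in H3.3S28A, against 5.39 and 4.46 CPM in H3.3 (2.43 ± 0.20). These 2 went opposite ways in both fits. GATA factors had 12 of 26 higher and 1 lower, but 6 and 1 without the trend, and only 4 higher as fitted without H3.3 replicate 1. None was lower without H3.3S28A replicate 2, without H3.3 replicate 1 or by DESeq2. ERF factors had 7 of 22 higher and 1 lower, 3 and 8 without the trend, with 6 lower as fitted without H3.3 replicate 1 and 2 without H3.3S28A replicate 2. F-box proteins had 4 of 26 higher and 9 lower, and 2 and 11 without the trend, with 2 higher as fitted without H3.3 replicate 1. Factors of the bHLH family had 9 of 19 higher and 2 lower, and 8 and 4 without the trend.

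Whether a change differed from that of the replication-coupled histone was tested by setting the H3.3S28A change against the change of H3.1S28A over H3.1, which has 4 libraries of its own. Only the H3.1S28A columns are marked as new, and the reason is not given. A difference in preparation between the 2 lines of a pair would not cancel here, and its part was not tested. The 2 changes differed at 7829 of 20052 genes (39.0%, edgeR adjusted p under 0.05), and at 7021 of 19842 (35.4%) without the span trend, which was weaker in the H3.1 pair (rho -0.218). The difference was called for 8 of 9 photorespiration genes, 11 of 15 chlorophyll synthesis genes, 12 of 17 folding genes and 10 of 16 iron genes, or 8, 13, 11 and 11 without the trend. The difference was also called for 12 of 21 nitrogen, 8 of 14 senescence and 8 of 18 aquaporin genes. Without the trend these were 10, 7 and 10. For autophagy the difference was called at 4 of 14, and at 3 without the trend, below the share of all genes. GUN5 had a log2 fold change of -2.34 ± 0.10 in H3.3S28A over H3.3 and 0.30 in H3.1S28A over H3.1, a difference of -2.67 ± 0.16 (edgeR adjusted p = 5.49e-07). For OPT3 the 2 changes were 1.53 ± 0.08 and -0.47 (difference 1.96 ± 0.20, edgeR adjusted p = 1.25e-05), and for BIP2 -1.64 ± 0.10 and -0.14 (difference -1.53 ± 0.16, edgeR adjusted p = 1.72e-05). For ATG8D they were 1.96 ± 0.14 and 0.04 (difference 1.89 ± 0.19, edgeR adjusted p = 1.12e-05). Of the other ATG8 genes named above, ATG8B differed too (1.77 ± 0.25). ATG8A and ATG8F also rose in the H3.1 pair, by 0.82 and 0.55, and no difference was called for them.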

How the data were processed

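Poly(A)-selected RNA of 4 H3.3S28A and H3.3 libraries was analysed, with the 4 H3.1S28A and H3.1 libraries for 1 comparison. The 30 chromatin libraries of the series are not analysed here. The deposited values are raw counts per gene, whole numbers in 1 table per pair of genotypes. The build TAIR10 and the tools HISAT2, Subread and DESeq2 are named in the submitters' processing notes. No source used here gives tool versions, annotation, strandedness or how reads with several matches were counted, so genes with near-identical copies or an antisense partner are uncertain. Columns were matched to samples by name, 0 columns were unused, and the columns named H3 followed by a short number were taken for H3.1.

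Counts were tested with edgeR 4.0.16 (R 4.3.3) by its quasi-likelihood test after filterByExpr and TMM scaling, over all tested genes with Benjamini-Hochberg adjustment at 0.05. Gene names and spans came from a RefSeq table of TAIR10.1, which held 26719 of 27416 genes (97.5%), 10376 of them with a symbol. The span trend was removed by a loess offset (span 0.5). That call in both fits was combined, and the same correction applied to the difference between pairs, was chosen after seeing the data. The difference between pairs was an interaction contrast over all 8 libraries. The library totals of 12865999 to 19738850 counts set the precision. The script was tested on simulated counts with known changes. DESeq2 1.42.0 was an alternative, with other scaling, count filters, each library left out, a replicate block, 1 fit of all 8 libraries, and a table without organelle genes.

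The members, lists and tests were chosen with earlier results of these data known. A listed gene was kept where the RefSeq table gives its symbol for its identifier, which held for 655 of 681 entries. Gene families were found by symbol or synonym only, so that members without a family name there were not counted. A list has no test of its own and is described by its counts and median beside those of all tested genes. Named genes are the 15 with a symbol and 3 without that changed most in each direction, where replicates did not overlap and the group with more RNA averaged 1 CPM or above, up to 4 members of each list or family by adjusted p, the histone genes and the 5 most abundant called genes in each direction. Other genes are said to be named after their values were seen.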

Additional observations from a re-analysis of the deposited data

Results flagged for a closer look

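The change of H3.3S28A over H3.3 differed from that of H3.1S28A over H3.1 at 7829 of 20052 genes, a difference tested by an edgeR interaction contrast over 8 libraries (2933 above 0 and 4896 below 0). In 5294 genes it was called in 1 direction both as fitted and without the span trend. Among the 36 genes with the largest changes it was called in both fits for 19, of which 12 held at most 3 counts in 1 of the 4 groups and are not given.

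The other 7 are given here because that difference was called. In the H3.3 pair PDF1.2 passed the count filter through H3.3S28A alone, and PAKRP1, GL3 and PRD1 through H3.3 alone. Each of these could be called there in 1 direction only. PDF1.2 had a log2 fold change of 7.71 ± 0.28 in H3.3S28A over H3.3 and of -0.59 in H3.1S28A over H3.1, a difference of 8.33 ± 0.78 (edgeR adjusted p = 6.92e-06). ASN1 was at -3.00 ± 0.19 and 0.34, which differ by -3.37 ± 0.33 (edgeR adjusted p = 9.78e-06). PAKRP1 was at -3.87 ± 0.33 and -0.20, a difference of -3.69 ± 0.38 (edgeR adjusted p = 1.27e-05). GL3 was at -3.24 ± 0.63 and 0.25, a difference of -3.52 ± 0.72 (edgeR adjusted p = 0.00188). PRD1 and FANCM had differences of -3.40 ± 0.83 and -2.58 ± 0.37, with H3.1 pair values of -0.09 and -0.48. Without the span trend the differences were -2.60 for PRD1, -1.49 for FANCM and -2.70 for PAKRP1. DFR was lower in both pairs, at -3.24 ± 0.13 and -1.72, a difference of -1.55 ± 0.47 (edgeR adjusted p = 0.0205). No test for single outlying samples was made in groups of 2 libraries, though H3.3S28A replicate 2 stood apart in its share of chloroplast genome counts.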

How the results depend on the processing

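The counts of genes higher and lower in H3.3S28A, 5674 and 5855, ranged from 4107 to 5436 and from 4768 to 5839 with 1 library left out, and from 4550 to 5826 and 4904 to 6150 under the other alternatives. The lists and families together held 488 members higher and 334 lower, or 372 to 485 and 287 to 344 with 1 library left out. The difference between pairs, 7829 genes, ranged from 6209 to 7642. With the replicate number as a block 5636 genes were higher and 5836 lower, and the difference between pairs was called at 7527. Replicate deviations with the same number correlated at 0.0253 across genes, so the numbers do not show a pairing, and the block changed no call among the 196 named genes. A lone library of a group was assumed to vary like the others. Removing the span trend turned the direction of PSBP-1 (-0.10), LHCB6 (-0.32), CAB1 (-0.39), CP12-1 (-0.15), CESA1 (0.66), AT4G40030 (-0.34), AT5G10980 (-0.17), AT1G09200 (-0.74), AT5G10390 (-0.78) and GLT1 (0.50), and ended the calls of PHO1, RBCS3B and LCR68. Leaving out 1 library ended 5 calls among the named genes, those of CAB1, PSBP-1, LHCB6, LHCA4 and AT5G10400, and DESeq2 ended that of AT5G10400. A single fit of all 8 libraries ended those of PSBP-1 and LHCB6, and omitting the count filter that of LHCB6. No call among the named genes changed with RLE scaling, without organelle genes or, for the 190 genes it held, with at least 1 CPM in 2 libraries. Genes with at most 3 counts in a group have folds limited by depth.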

Other observations

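Small peptide and calcium sensor families gave further single changes. Of 5 tested low-molecular-weight cysteine-rich peptide genes, which encode defensin-like proteins, 4 rose and 0 fell, and 3 and 0 without the span trend. LCR69 was at 223 and 234 CPM in H3.3S28A, against 73.6 and 81.1 CPM in H3.3, higher in both libraries and both fits (1.56 ± 0.07 and 0.84). LCR68 rose as fitted (0.88 ± 0.08) and was not called without the span trend (0.04). Of 12 calmodulin-like genes 4 rose and 2 fell, and 2 and 2 without the trend. CML42 was at 11.1 and 13.2 CPM in H3.3S28A and 2.70 and 2.46 CPM in H3.3 (2.23 ± 0.21). The touch-induced gene TCH2 was at 23.0 and 22.5 CPM in H3.3S28A and 33.2 and 49.6 CPM in H3.3, with unequal H3.3 libraries, both above H3.3S28A (-0.86 ± 0.16).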
